A study of Homo sapiens with 66 samples.

Results

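Autophagy encloses cytoplasmic material in a double membrane, the autophagosome, and delivers it to the lysosome for breakdown. The 10 genes described here code for autophagy receptors and for core machinery, and they were chosen by name from the 20167 genes of the count table: SQSTM1, NBR1, MAP1LC3B, GABARAPL1, WIPI1, ULK1, ATG3, ATG5, ATG16L1 and ATG101. Earlier results of these data were known when they were chosen. Counts of members set beside a share of all genes are therefore a description and not a test. All 10 were found by their Ensembl identifiers, and all 10 passed the filter on low counts in each comparison. SQSTM1 (also called p62) and NBR1 are receptors that bind ubiquitin on cargo and hold it to the growing membrane. MAP1LC3B (LC3B) and GABARAPL1 belong to the ATG8 family, the small proteins that are coupled to lipid on that membrane and that the receptors bind. ULK1 and ATG101 are parts of the kinase complex that starts the process, and WIPI1 binds phosphatidylinositol 3-phosphate on the forming membrane. ATG3 is the conjugating enzyme for the ATG8 family, and ATG5 with ATG16L1 forms part of the complex that directs ATG8 proteins to the membrane. Autophagy and the proteasome are the main routes of protein breakdown in plasma cells and in multiple myeloma, cells that make large amounts of immunoglobulin.

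Gene expression was measured by RNA-seq in 66 libraries of established human myeloma cell lines, 3 replicates in each of 22 groups. AMO1 (AMO-1 WT in the labels) gave 12 groups and 36 libraries, and L363-CFZr (CFZr L363 in the labels), a subline of L363 resistant to carfilzomib, gave 10 groups and 30 libraries. Both lines were exposed for 6 h or 24 h to DMSO, the solvent, or to 1 µM of NCP26, NCP22, HFG (MAZ1392, halofuginone) or halofuginol (MAZ1805). AMO1 alone was also exposed for 6 h or 24 h to carfilzomib (CFZ), a proteasome inhibitor. Its dose is not in the labels, and the study's figure of the AMO1 RNA-seq gives 10 nM. Each compound was used at a single dose, so sizes of differences between CFZ and an inhibitor hold for these doses only. NCP26 and HFG inhibit prolyl-tRNA synthetase, the enzyme that charges tRNA with proline: HFG occupies the proline and tRNA sites and NCP26 the ATP site. NCP22 is the compound from which NCP26 was developed, and halofuginol is the analogue of HFG with a hydroxyl group in place of the ketone. The study's binding assay lists affinities for the synthetase for both, and the study describes their potencies as lower or absent. The comparison of interest sets proteasome inhibition against synthetase inhibition. It can be made directly in AMO1 only, since CFZ was not given to L363-CFZr in these libraries. The study's statement on statistics speaks of biological triplicates as its general rule, but neither the labels nor the RNA-seq methods say that these replicates came from separate cultures, so p-values measure the spread between these libraries, which may be in part technical. Cells of the 6 h groups were frozen overnight before extraction and those of the 24 h groups stayed on ice, so time and handling cannot be told apart.

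Total counts ranged from 1666325 to 6596543 per library, with a median of 3165566. The library AMO1 CFZ 24 h replicate 2 had a Pearson correlation of only 0.946 with the mean of the other 2 replicates of its group over log2 values, and L363-CFZr DMSO 24 h replicate 2 one of 0.942. The third lowest of the 66 values was 0.972 and the median was 0.987, so values of members called in comparisons that hold either library are also given without it. The column names carry numbers that recur in 3 sets of 22 libraries. In AMO1 the DMSO 24 h libraries and the NCP26, NCP22, HFG and halofuginol 24 h libraries are in different sets, and a term for the set could be estimated there only through the CFZ 24 h libraries, 1 of which is in the DMSO set and 2 in the other. The DMSO 6 h libraries of L363-CFZr also share no set with its HFG and halofuginol 6 h libraries, and there treatment and set cannot be told apart. All 9 plasma cell and myeloma markers of a list were expressed, with a summed level of 4508 to 9978 CPM (counts as a share of the scaled library size). In AMO1 at 6 h the sum was 9642 to 9978 CPM with DMSO and 6430 to 6676 CPM with CFZ, and its part in the effects below was not tested. Markers of other cell types were low. The B cell gene MS4A1 had a median of 0.639 CPM in AMO1 and 0 in L363-CFZr, and PAX5 and CD22 had medians of 0 in both lines. Of 4 T cell markers CD3E was the highest, with a median of 1.58 and at most 4.01 CPM in AMO1, and the summed list reached 4.41 CPM. The 3 monocyte and macrophage markers summed to at most 1.99 CPM. A stromal or epithelial list of 4 genes summed to at most 12.4 CPM, and its highest gene was the keratin KRT8, with a median of 5.23 and at most 9.71 CPM in AMO1. CPM is a share of each library's reads, and in bulk RNA fewer cells of a type and less RNA per cell cannot be told apart. The treatments left their known marks at 6 h: the heat shock gene DNAJB1 differed between CFZ and DMSO by a log2 fold change of 5.33, and the ATF4 target DDIT3 differed between NCP26 and DMSO by 1.86 in AMO1 and by 2.02 in L363-CFZr. DDIT3 was higher with CFZ as well: in AMO1 at 6 h its mean was 77.7 CPM with DMSO, 252 CPM with CFZ and 281 CPM with NCP26. DDIT3 therefore does not tell CFZ and NCP26 apart at 6 h. At 24 h its mean in AMO1 was 82.5 CPM with DMSO, 81.5 ± 26.9 CPM (SD) with CFZ and 347 CPM with NCP26. NCP22 and halofuginol were not without effect on ATF4 targets in AMO1 at 6 h. There ASNS had a mean of 134 CPM with DMSO, 250 with NCP26, 267 with NCP22 and 217 with halofuginol. TRIB3 had 110, 307, 203 and 166 CPM in the same order, while DDIT3 was at 94.1 CPM with NCP22 and 92.4 with halofuginol. In L363-CFZr at 6 h ASNS was at 76.8 CPM with DMSO, 86.3 with NCP22 and 85 with halofuginol.

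Promoter sequences are shown for members that stand for the different patterns in the results: SQSTM1 and ULK1, which rose with CFZ at 6 h, ATG101, which rose with the synthetase inhibitors at 6 h in AMO1, and WIPI1, which rose with them at 6 h in L363-CFZr. On GRCh38 SQSTM1 (ENSG00000161011) runs from 179806398 to 179838078 on chromosome 5, ULK1 (ENSG00000177169) from 131894622 to 131923150 and ATG101 (ENSG00000123395) from 52069246 to 52077495 on chromosome 12, all on the plus strand, and WIPI1 (ENSG00000070540) from 68420948 to 68457513 on chromosome 17, on the minus strand. Each sequence is the stretch of 250 bases before the RefSeq start of transcription, on GRCh38.p14, written 5′ to 3′ on the strand of the gene. The regions are chr5:179820655-179820904 for SQSTM1, chr12:131894372-131894621 for ULK1, chr12:52069728-52069977 for ATG101 and chr17:68457497-68457746 for WIPI1. Capitals mark a match to the antioxidant response element TGACNNNGC, the motif of NRF2, and a sequence in lower case throughout has no match to any motif searched.
SQSTM1: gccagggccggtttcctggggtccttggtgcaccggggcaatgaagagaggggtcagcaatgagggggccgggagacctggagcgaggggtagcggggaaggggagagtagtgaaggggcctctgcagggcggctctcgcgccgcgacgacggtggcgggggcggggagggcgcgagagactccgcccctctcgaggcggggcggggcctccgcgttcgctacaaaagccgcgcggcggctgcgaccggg
ULK1: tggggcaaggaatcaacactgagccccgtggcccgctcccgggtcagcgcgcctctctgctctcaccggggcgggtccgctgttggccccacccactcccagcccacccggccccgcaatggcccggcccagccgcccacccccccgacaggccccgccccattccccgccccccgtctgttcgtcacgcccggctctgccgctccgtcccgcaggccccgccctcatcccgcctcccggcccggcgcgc
ATG101: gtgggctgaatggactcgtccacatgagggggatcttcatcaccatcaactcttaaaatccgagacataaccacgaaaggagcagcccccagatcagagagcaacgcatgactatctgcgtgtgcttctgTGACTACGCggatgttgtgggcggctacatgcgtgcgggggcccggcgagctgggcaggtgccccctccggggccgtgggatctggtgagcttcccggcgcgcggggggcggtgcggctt
WIPI1: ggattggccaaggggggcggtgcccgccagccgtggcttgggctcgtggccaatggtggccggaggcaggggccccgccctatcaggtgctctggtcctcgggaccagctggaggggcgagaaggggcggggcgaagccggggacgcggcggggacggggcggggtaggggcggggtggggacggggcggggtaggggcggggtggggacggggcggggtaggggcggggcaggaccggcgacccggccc
The GC content of these stretches was 73.6% for SQSTM1, 78% for ULK1, 62.8% for ATG101 and 79.6% for WIPI1. The stretches before MAP1LC3B and GABARAPL1 lie inside the annotated span of their genes and are not printed. Of those printed, SQSTM1 and ATG101 also lie inside the span of the gene, and WIPI1 does in part. Whether any stretch overlaps an exon of a longer transcript was not tested.

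The motifs were searched on both strands in the 300 bases around each start, 250 before and 50 after it, in 14 entries for the 10 members. The antioxidant response element TGACNNNGC stood in the MAP1LC3B promoter as TGACCAGGC, its first base 46 bases before the start, and in the ATG101 promoter as TGACTACGC, 120 bases before the start. This motif is in 13.3% of all 35116 promoters of the RefSeq table. The heat shock element, searched as GAANNTTC and TTCNNGAA, is in 13.5% of all promoters and was found only in that of ATG3 among the members, as TTCCGGAA, 75 bases before the start. ATG3 also held the CLEAR element TCACGTGA, the motif of TFEB, which is in 0.98% of all promoters. The C/EBP-ATF response element TGATGNAA, the motif of ATF4 with its partners, is in 3.62% of all promoters and was in none of the members' entries. No searched motif was in the promoter windows of SQSTM1, NBR1, GABARAPL1, WIPI1, ULK1, ATG5 or ATG16L1, which says only that these letters are not in these windows.

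Levels of different genes are compared per kilobase of the canonical transcript. In AMO1 with DMSO at 6 h, SQSTM1 was by far the most abundant member at 278 CPM per kilobase. ATG3 followed at 66.8 CPM per kilobase, MAP1LC3B at 56.7, WIPI1 at 48.4, NBR1 at 32.7 and ATG101 at 28. The lowest were ATG16L1 at 9.31, GABARAPL1 at 8.9, ATG5 at 8.52 and ULK1 at 3.99 CPM per kilobase. With CFZ at 6 h SQSTM1 stood at 1211 and MAP1LC3B at 185 CPM per kilobase. The members also differed in how far their levels moved between the 12 AMO1 groups. The highest group mean of SQSTM1 was 6.21 times its lowest, and this ratio was 3.64 for GABARAPL1, 3.40 for MAP1LC3B and 2.97 for ULK1. ATG16L1, at 1.34, and ATG3, at 1.44, had the narrowest ranges. In the 10 L363-CFZr groups the ratio lay between 1.47 for ATG16L1 and 2.26 for ULK1, and it was 1.98 for SQSTM1.

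Proteasome inhibition for 6 h raised both ATG8 genes, the receptor SQSTM1 and the kinase ULK1 in AMO1. SQSTM1 had 787, 831 and 751 CPM in the 3 DMSO libraries and 3394, 3296 and 3628 CPM in the 3 CFZ libraries. No CFZ library came near a DMSO library, and the 4.34-fold rise had a log2 fold change of 2.12 ± 0.055 (standard error, SE) and an adjusted p of 4.42e-18 in edgeR's quasi-likelihood test. GABARAPL1 had 12.6, 17.8 and 19.8 CPM with DMSO and 63.6, 63.1 and 56.3 CPM with CFZ, a 3.63-fold rise (adjusted p = 2.5e-09, edgeR). For MAP1LC3B the values were 112, 115 and 138 CPM with DMSO and 389, 395 and 411 CPM with CFZ, a 3.26-fold rise (adjusted p = 2.31e-13, edgeR). ULK1, the kinase whose complex receives nutrient signals, was at a much lower level. It had 20.8, 24.1 and 18.8 CPM with DMSO and 37.2, 39.5 and 45.3 CPM with CFZ, a 1.91-fold rise (adjusted p = 4e-05, edgeR). In all 4 genes the CFZ and DMSO libraries did not overlap, and neither did they in ATG5 and ATG101, which were not called. With 3 libraries a side, lack of overlap is only a description, here and below. Its share over all genes was not counted.

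The other receptor, NBR1, did not pass the test at 6 h. It had 167, 137 and 148 CPM with DMSO and 166, 157 and 162 CPM with CFZ, and the groups overlapped (log2 fold change 0.10, adjusted p = 0.408, edgeR). WIPI1 (0.086), ATG3 (-0.15), ATG5 (0.29) and ATG16L1 (0.0022) also missed the threshold, with log2 fold changes as given. ATG101, the partner of ULK1 in the initiation complex, had 38.3, 43 and 39 CPM with DMSO and 49.4, 47.5 and 50.5 CPM with CFZ, and missed it at an adjusted p of 0.0597 (edgeR), although an offset for GC content gave 0.35 and an adjusted p of 0.0132. In all, 4 of 10 members rose and 0 fell with CFZ at 6 h, where 14.1% of all genes tested rose and 26.9% changed in either direction. The median log2 fold change was 0.29 over the members and -0.01 over all genes tested. The gene MRNIP overlaps SQSTM1 on the opposite strand and shares 20% of the 31-base words of SQSTM1, and it moved with it, from 44.3 ± 2.05 to 149 ± 5.13 CPM (SD, n = 3; log2 fold change 1.74). How far reads of the one were assigned to the other was not tested. MAP1LC3B shares 9.05% of its 31-base words with its near copy MAP1LC3B2, which is not in the count table, so the value given for MAP1LC3B may hold reads of both. ATG101 shares 17.9% of its 31-base words with ENSG00000257663, a long non-coding RNA gene on the opposite strand that is not counted either. How far reads of that gene were assigned to ATG101 was not tested.

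**Figure D1:**
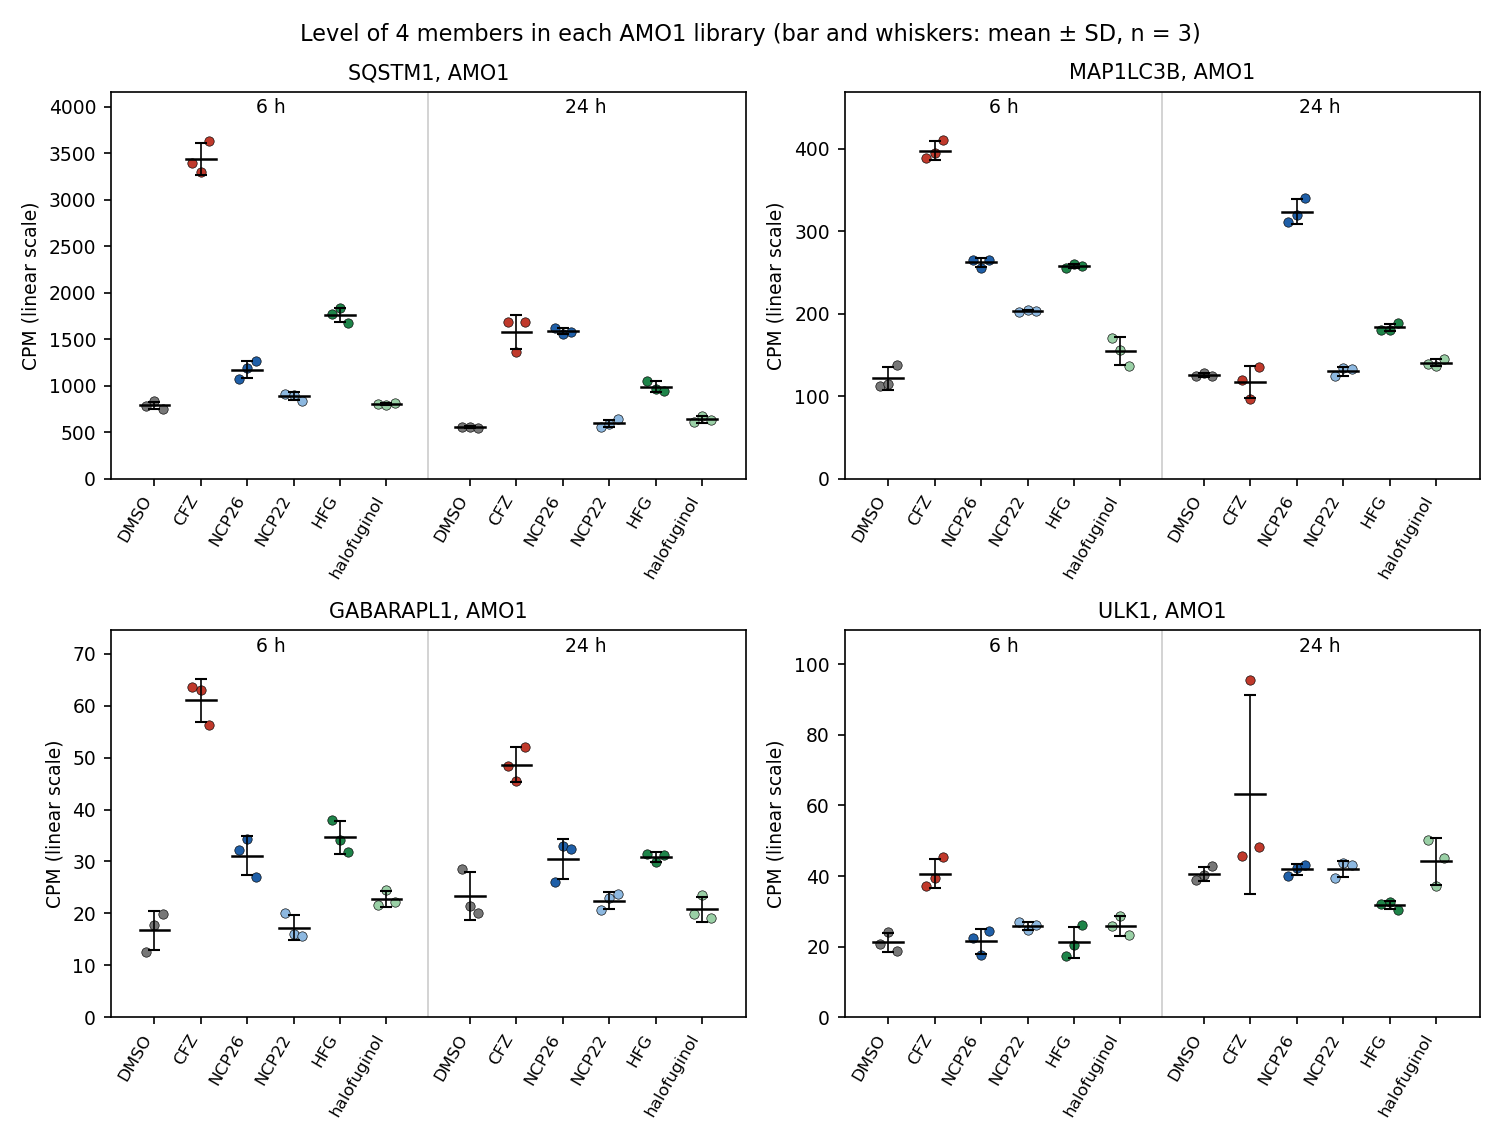
Level in CPM (y axis) of SQSTM1, MAP1LC3B, GABARAPL1 and ULK1 in each AMO1 library, by treatment along the x axis with 6 h left and 24 h right. Points are libraries and bars the mean and SD of 3; SQSTM1 is highest with CFZ at 6 h, and MAP1LC3B with CFZ at 24 h overlaps with DMSO.

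After 24 h of CFZ the receptor SQSTM1 and the ATG8 gene GABARAPL1 were still high, while MAP1LC3B overlapped with DMSO and 3 other members had fallen. SQSTM1 had 559, 559 and 544 CPM with DMSO and 1684, 1363 and 1689 CPM with CFZ, a 2.88-fold rise (log2 fold change 1.53 ± 0.12 SE, adjusted p = 0.000134, edgeR). GABARAPL1 had 28.6, 21.5 and 20.05 CPM with DMSO and 48.3, 45.4 and 52.1 CPM with CFZ, a 2.14-fold rise (adjusted p = 0.00191, edgeR). In both genes every CFZ library lay above every DMSO library. MAP1LC3B had 124, 129 and 124 CPM with DMSO and 119, 96.1 and 135 CPM with CFZ, and the groups overlapped. Its log2 fold change was -0.086, with a 95% interval of -0.34 to 0.17.

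The lipid-binding WIPI1 fell with CFZ at 24 h, from 128, 132 and 121 CPM to 85.1, 73.6 and 82.1 CPM (log2 fold change -0.64 ± 0.10 SE, adjusted p = 0.00278, edgeR). NBR1 fell from 183, 187 and 189 CPM to 142, 140.3 and 148 CPM (log2 fold change -0.36, adjusted p = 0.0235, edgeR). ATG101 fell from 37.8, 42.8 and 52.1 CPM to 30.5, 25.3 and 33.5 CPM (log2 fold change -0.56, adjusted p = 0.0367, edgeR). The groups of these 3 genes did not overlap, but the calls for NBR1 and ATG101 were lost when CFZ replicate 1, DMSO replicate 2 or DMSO replicate 3 was left out, and that for NBR1 also without DMSO replicate 1. A term for the set of the libraries also ended the call for ATG101 (log2 fold change -0.53, adjusted p = 0.154), also with CFZ replicate 2 left out (-0.54, adjusted p = 0.0945). In all, 2 of 10 members rose, against 13.1% of all genes tested, and 3 fell, against 14%. ULK1 had 45.5, 95.7 and 48.2 CPM with CFZ against 38.9, 40.2 and 42.7 CPM with DMSO, and the middle value is that of the library that stood apart. Its log2 fold change was 0.66 (adjusted p = 0.12, edgeR) and 0.20 without that library. The 5 calls remained without it, with log2 fold changes of 1.61 for SQSTM1, 1.15 for GABARAPL1, -0.59 for WIPI1, -0.50 for ATG101 and -0.36 for NBR1. In that setting 23.4% of all genes tested rose and 24.9% fell. MRNIP was again higher with CFZ beside SQSTM1, by a log2 fold change of 1.63. In AMO1 its mean also lay above DMSO with NCP26 and HFG. At 6 h these means were 70.2 ± 21.9 (SD) and 75.5 CPM against 44.3 CPM, and at 24 h 113 and 88 CPM against 64.7 CPM. In L363-CFZr they were 58.8 and 51.3 CPM against 58.7 CPM at 6 h, and 82.5 and 75.4 CPM against 79.4 CPM at 24 h.

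The change of the CFZ effect with time was tested as an interaction, the log2 fold change against DMSO at 24 h minus that at 6 h. It was negative and past the threshold for 7 of 10 members, against 11.6% of all genes tested, and positive and past it for 0. MAP1LC3B had the largest difference, -1.80 ± 0.16 (SE; adjusted p = 8.05e-06, edgeR). The difference was -0.60 for SQSTM1, -0.47 for NBR1, -0.74 for WIPI1, -0.78 for GABARAPL1 and -0.87 for ATG101. Without CFZ 24 h replicate 2 these 6 genes still passed, with differences of -1.69 for MAP1LC3B, -0.51 for SQSTM1, -0.46 for NBR1, -0.68 for WIPI1, -0.72 for GABARAPL1 and -0.79 for ATG101. ATG5 passed at -0.69 (adjusted p = 0.0442), but without CFZ 24 h replicate 2 it was -0.56 (adjusted p = 0.0565), and it was lost without most other libraries too. For ULK1 the difference was -0.30 (adjusted p = 0.572), and -0.74 (adjusted p = 0.00275) without CFZ 24 h replicate 2. GABARAPL1 lost its call when any of 5 libraries was left out, among them DMSO 24 h replicate 1 and DMSO 6 h replicate 1, with differences of -0.93 to -0.60.

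Synthetase inhibition by NCP26 for 6 h raised MAP1LC3B, GABARAPL1, SQSTM1 and ATG101 in AMO1. NCP26, HFG and CFZ were set against the same DMSO libraries, so their values are given side by side and their likeness is not tested. MAP1LC3B had 266, 256 and 266 CPM with NCP26, above the 112, 115 and 138 CPM with DMSO (2.17-fold, adjusted p = 1.18e-05, edgeR). GABARAPL1 had 32.1, 34.3 and 27 CPM (1.87-fold, adjusted p = 0.00207, edgeR). The rise of SQSTM1 was small beside that with CFZ: it had 1073, 1185 and 1263 CPM (1.5-fold, adjusted p = 0.000855, edgeR). ATG101, which did not pass with CFZ, had 60.3, 56.5 and 65.7 CPM (1.52-fold, adjusted p = 0.0015, edgeR). None of these 4 overlapped with DMSO. NBR1 had 140.3, 199 and 197 CPM and missed the threshold (log2 fold change 0.26), but passed it at a log2 fold change of 0.43 without NCP26 replicate 1. ULK1, at a log2 fold change of 0.016, WIPI1, at -0.037, and ATG3, at 0.067, were close to DMSO. In all, 4 of 10 members rose and 0 fell, where 18.1% of all genes tested rose, 19.2% fell and 37.3% passed in either direction.

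NCP26 for 24 h in AMO1 raised SQSTM1, MAP1LC3B and NBR1, with the first 2 at log2 fold changes above their 6 h values. SQSTM1 had 1619.5, 1559 and 1577 CPM against 559, 559 and 544 CPM with DMSO (log2 fold change 1.51 ± 0.038 SE, adjusted p = 1.94e-24, edgeR). MAP1LC3B had 312, 319 and 341 CPM against 124, 129 and 124 CPM (log2 fold change 1.36 ± 0.055 SE, adjusted p = 2.51e-19, edgeR). The receptor NBR1, which fell with CFZ, had 267, 246 and 255 CPM against 183, 187 and 189 CPM (log2 fold change 0.45, adjusted p = 1.36e-08, edgeR). These 3 genes showed no overlap between the groups. GABARAPL1 passed the test at a log2 fold change of 0.42 (adjusted p = 0.0114), yet its 26, 32.9 and 32.5 CPM overlapped with the 28.6, 21.5 and 20.05 CPM of DMSO, and the call was lost without any of 4 libraries (NCP26 replicate 2 or 3, DMSO replicate 2 or 3) and with a term for the set (0.41, adjusted p = 0.236). With that term SQSTM1 (1.67), MAP1LC3B (1.42) and NBR1 (0.44) still passed, and with CFZ replicate 2 left out of it they passed at 1.53, 1.201 and 0.41. ATG101 had 52, 48.6 and 57.4 CPM and a log2 fold change of 0.22 (adjusted p = 0.0795). WIPI1 (-0.10) and ULK1 (0.031) were near DMSO. In all, 4 of 10 members rose and 0 fell, where 29.8% of all genes tested rose, 30.9% fell and 60.7% passed in either direction, so the share that rose is not far from the background. The difference between the 6 h and 24 h effects of NCP26 was not tested.

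HFG at 6 h raised 6 of 10 members and lowered 0, where 27.7% of all genes tested rose, 26.6% fell and 54.3% passed in either direction. SQSTM1 had 1769, 1833 and 1679 CPM (log2 fold change 1.19, adjusted p = 1.83e-10, edgeR), MAP1LC3B 256, 259.9 and 258 CPM (1.12) and GABARAPL1 38, 34.2 and 31.8 CPM (1.07). ATG101 had 65.6, 72.9 and 70.1 CPM (log2 fold change 0.83, adjusted p = 3.79e-06, edgeR), the highest level of this gene in any of the 22 groups. NBR1 had 190.0, 174 and 194 CPM (log2 fold change 0.34, adjusted p = 0.00331, edgeR). All 6 were free of overlap with DMSO. ATG5 had 36.5, 39.5 and 31.5 CPM against 25.8, 29.4 and 26.2 CPM (log2 fold change 0.42, adjusted p = 0.0133, edgeR), but an offset for GC content took its value to 0.12 (adjusted p = 0.472), and it lost its call without HFG replicate 2 or DMSO replicate 1. Across all genes the log2 fold changes of HFG at 6 h had a correlation of -0.32 with GC content, and those of NCP26 at 6 h one of -0.37.

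HFG for 24 h left 5 of 10 members higher, against 28.5% of all genes tested, and 1 lower, against 30.5% (59.0% in either direction). SQSTM1 had 1054, 966 and 942 CPM (log2 fold change 0.83, adjusted p = 3.78e-11, edgeR) and MAP1LC3B 181, 181 and 188 CPM (log2 fold change 0.54, adjusted p = 4.92e-07, edgeR). These are the 2 higher calls that held with a term for the set (0.99 and 0.60), and both 24 h values were below those at 6 h, a difference that was not tested. GABARAPL1 (0.43), NBR1 (0.20) and WIPI1 (0.19) passed by log2 fold change without that term and not with it (adjusted p = 0.2, 0.321 and 0.153). GABARAPL1 also lost its call without DMSO replicate 2 or 3, and WIPI1 without HFG replicate 2 or 3 or DMSO replicate 1 or 3. The kinase ULK1 fell with HFG, from 38.9, 40.2 and 42.7 CPM with DMSO to 32.1, 32.7 and 30.5 CPM (log2 fold change -0.37, adjusted p = 0.00769, edgeR), and its value with the term for the set was -1.01 (adjusted p = 0.0263). That term rests on the CFZ libraries, where ULK1 was at 45.5, 95.7 and 48.2 CPM, and with CFZ replicate 2 left out it gave -0.43 for ULK1 and the call was lost (adjusted p = 0.15), an alternative chosen after seeing the data. In the same setting SQSTM1 (0.85) and MAP1LC3B (0.38, adjusted p = 0.031) still passed. Without a term for the set, ULK1 is the only member called lower in any of the 4 comparisons of NCP26 or HFG with DMSO in AMO1.

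**Figure D2:**
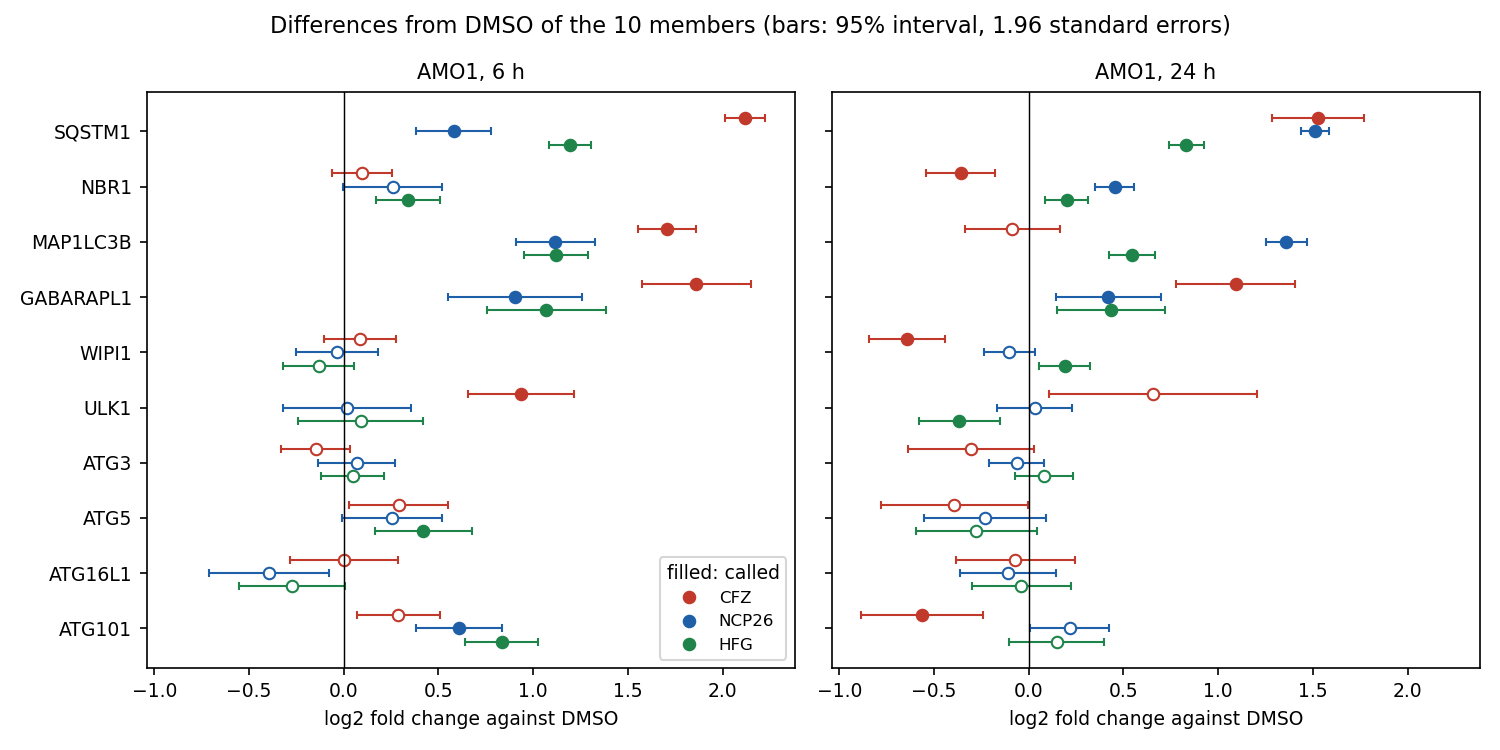
Log2 fold change against DMSO (x axis) of the 10 members (y axis) with CFZ, NCP26 and HFG in AMO1, 6 h left and 24 h right. Filled marks passed the test and bars are 95% intervals; at 24 h MAP1LC3B and NBR1 lie above 0 with NCP26 and HFG, while with CFZ NBR1 lies below 0 and the interval of MAP1LC3B spans 0.

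Set directly against synthetase inhibition, CFZ at 6 h gave higher levels of SQSTM1, both ATG8 genes and ULK1, and a lower level of ATG101. SQSTM1 was 2.91 times as high with CFZ as with NCP26 (log2 fold change 1.54 ± 0.092 SE, adjusted p = 1.4e-07, edgeR) and 1.91 times as high as with HFG (0.93 ± 0.048 SE, adjusted p = 2.48e-10). For GABARAPL1 the log2 fold changes were 0.96 against NCP26 and 0.80 against HFG. MAP1LC3B differed by 0.59 against NCP26 and by 0.59 against HFG. All of these passed, and no CFZ library overlapped with an inhibitor library in SQSTM1, GABARAPL1 or MAP1LC3B. The kinase gene ULK1 differed by 0.92 (adjusted p = 0.000553) against NCP26 and by 0.85 (adjusted p = 0.00012) against HFG. ATG101 was lower with CFZ by a log2 fold change of -0.32 against NCP26 (adjusted p = 0.0295) and of -0.54 against HFG (adjusted p = 8.68e-05, edgeR). The first of these was lost without any 1 of the CFZ libraries or NCP26 replicate 3.

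In all, 5 of 10 members differed between CFZ and NCP26 at 6 h, against 42% of all genes tested, and 7 of 10 between CFZ and HFG, against 54.0%. The further calls against HFG were a higher WIPI1 (log2 fold change 0.23, lost without CFZ replicate 1 or 2 or HFG replicate 3) and a lower NBR1 (-0.23). These libraries were all in 1 set. The summed level of the myeloma markers was 6430 to 6676 CPM with CFZ, 4873 to 5172 CPM with NCP26 and 4628 to 4700 CPM with HFG at 6 h. Their part in the differences was not tested.

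By 24 h the order of MAP1LC3B had turned over. It had 119, 96.1 and 135 CPM with CFZ against 312, 319 and 341 CPM with NCP26 (log2 fold change -1.46 ± 0.14 SE, adjusted p = 0.000174, edgeR) and 181, 181 and 188 CPM with HFG (-0.65 ± 0.14 SE, adjusted p = 0.0155). Every CFZ library lay below every NCP26 and HFG library. NBR1 was lower with CFZ by a log2 fold change of -0.82 against NCP26 and -0.58 against HFG. WIPI1 was lower by -0.54 and -0.84, and ATG101 by -0.81 and -0.76, in the same order. GABARAPL1 remained higher with CFZ, by 0.69 against NCP26 (adjusted p = 0.00528) and 0.66 against HFG (adjusted p = 0.0116). Without CFZ replicate 2 all of these calls held. The log2 fold changes against NCP26 and HFG were then -1.34 and -0.54 for MAP1LC3B, -0.81 and -0.58 for NBR1, -0.48 and -0.80 for WIPI1, -0.71 and -0.66 for ATG101, and 0.73 and 0.69 for GABARAPL1. The 2 ATG8 genes thus stood on opposite sides: GABARAPL1 higher and MAP1LC3B lower with CFZ than with either inhibitor. Without CFZ replicate 2, 30.8% of all genes tested were higher and 29.995% lower with CFZ than with NCP26. Against HFG 18.7% were then higher and 17.9% lower.

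SQSTM1 at 24 h had 1684, 1363 and 1689 CPM with CFZ and 1619.5, 1559 and 1577 CPM with NCP26, and the groups overlapped. The log2 fold change was 0.0075, with a 95% interval of -0.25 to 0.26. Without CFZ replicate 2 it was 0.10 and passed the threshold (adjusted p = 0.0397). Against HFG, SQSTM1 was higher with CFZ by 0.68 (adjusted p = 0.013; 0.76 without CFZ replicate 2) and ULK1 by 0.99 (adjusted p = 0.0454), the latter at 0.55 (adjusted p = 0.00285) without CFZ replicate 2 and at 0.75 (adjusted p = 0.0861) with an offset for GC content. In all, 5 of 10 members differed between CFZ and NCP26, 1 higher and 4 lower, against 22.5% and 21.4% of all genes tested. Between CFZ and HFG 7 of 10 differed, 3 higher and 4 lower, against 9.92% and 9.05%. The calls against HFG rest on all 3 HFG libraries: 3 were left without HFG replicate 1, 1 without replicate 2 and 2 without replicate 3, while the log2 fold changes of MAP1LC3B stayed within -0.76 to -0.54. The share of all genes called without each HFG library is not given. With only the 2 CFZ libraries of the inhibitors' set, MAP1LC3B was at -1.47 against NCP26 and -0.66 against HFG, GABARAPL1 at 0.70 and 0.67, and 5 and 7 members passed, as in the comparison of all libraries. The summed myeloma markers at 24 h were 4508 to 6417 CPM with CFZ, 4791 to 4875 CPM with NCP26, 5215 to 5417 CPM with HFG and 7920 to 8435 CPM with DMSO, and their part in the differences was not tested.

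**Figure D3:**
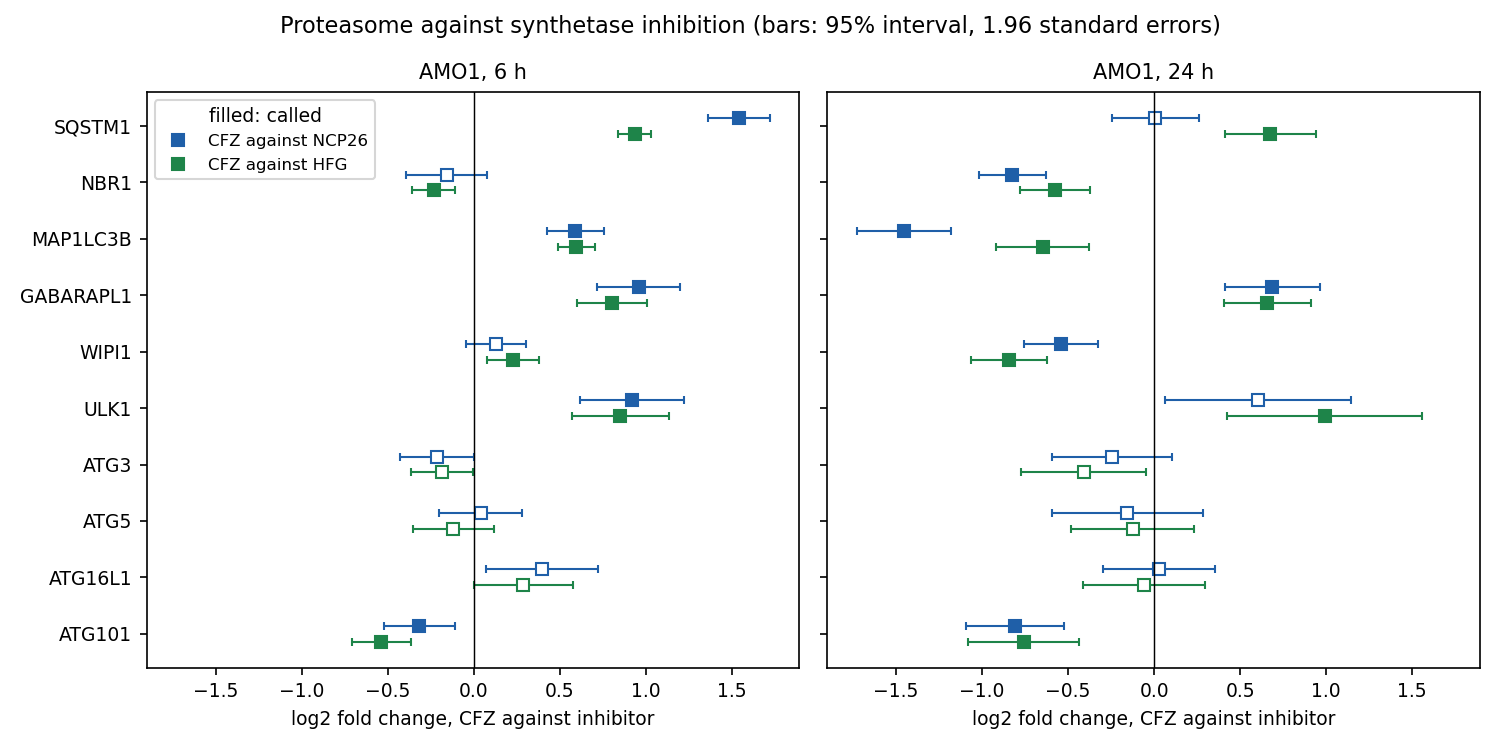
On the x axis the log2 fold change, CFZ against NCP26 (blue) and CFZ against HFG (green), for the 10 members (y axis) in AMO1, 6 h left and 24 h right; filled marks passed the test and bars are 95% intervals. MAP1LC3B lies above 0 at 6 h and below 0 at 24 h against both inhibitors, and GABARAPL1 lies above 0 in all 4 comparisons.

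In the CFZ-resistant line L363-CFZr, NCP26 for 6 h raised WIPI1, MAP1LC3B and NBR1, and not SQSTM1. WIPI1 had 82.6, 86.2 and 87.9 CPM with DMSO and 149, 161 and 144 CPM with NCP26 (log2 fold change 0.84 ± 0.10 SE, adjusted p = 0.000308, edgeR). MAP1LC3B had 59.9, 70.9 and 64.4 CPM with DMSO and 103, 129 and 108 CPM with NCP26 (0.82 ± 0.12 SE, adjusted p = 0.00148, edgeR). NBR1 had 103, 118 and 107 CPM with DMSO and 151, 140.3 and 153 CPM with NCP26 (0.46, adjusted p = 0.0106, edgeR), a call lost without DMSO replicate 1 or 3. None of the 3 overlapped. SQSTM1 had 584, 516 and 620.0 CPM with DMSO and 579, 680.3 and 556 CPM with NCP26, and these overlapped (log2 fold change 0.10, 95% interval -0.12 to 0.32). GABARAPL1 differed by 0.38 (adjusted p = 0.0585), and passed without NCP26 replicate 2 or DMSO replicate 2. In all, 3 of 10 members rose and 0 fell, where 9.81% of all genes tested rose, 8.99% fell and 18.8% passed in either direction. The summed myeloma markers of L363-CFZr at 6 h were 8216 to 8550 CPM with DMSO, 5581 to 6565 CPM with NCP26 and 5678 to 5972 CPM with HFG, and at 24 h 5372 to 8721 CPM, 4613 to 5241 CPM and 6939 to 7420 CPM, in the same order. Their part in the effects was not tested.

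With 24 h of NCP26 in L363-CFZr SQSTM1 rose too. It had 339.9, 232 and 343 CPM with DMSO and 523, 555 and 522 CPM with NCP26 (log2 fold change 0.82, adjusted p = 0.0369, edgeR). MAP1LC3B had 72.6, 52.3 and 72.4 CPM and 110.2, 125 and 116 CPM (log2 fold change 0.84, adjusted p = 0.0222, edgeR), and WIPI1 105, 81.5 and 90.6 CPM and 149.8, 173 and 145 CPM (log2 fold change 0.77, adjusted p = 0.0221, edgeR). In each gene the middle DMSO value, from the library that stood apart, was the lowest of the 3. Without it the log2 fold changes were 0.65 for SQSTM1, 0.70 for MAP1LC3B and 0.69 for WIPI1, all past the threshold, and NBR1 passed as a 4th at 0.42. No member passed without any 1 of the NCP26 libraries or without DMSO replicate 3, and 1 did without DMSO replicate 1. All genes called moved as well, from 757 to 171, 112 and 132 without NCP26 replicate 1, 2 and 3. They were 276 without DMSO replicate 1, 3123 without replicate 2 and 287 without replicate 3. The 3 of 10 members that rose stand against 2.71% of all genes tested that rose, 4.38% that fell and 7.09% in either direction.

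HFG for 6 h in L363-CFZr raised 5 of 10 members, where 26.9% of all genes tested rose, 27.5% fell and 54.5% passed in either direction. MAP1LC3B had 106, 109.9 and 109.7 CPM (log2 fold change 0.77, adjusted p = 4.08e-08, edgeR), WIPI1 138, 127 and 139 CPM (0.69) and NBR1 161, 149.5 and 156 CPM (0.55). GABARAPL1 (0.39) and ATG3 (0.20) passed by smaller log2 fold changes, and both were lost without HFG replicate 3. SQSTM1 had 579.9, 556 and 579 CPM and a log2 fold change of 0.027 (adjusted p = 0.72). In this comparison the log2 fold changes of all genes had a correlation of -0.57 with GC content, and an offset for it took SQSTM1 to 0.33 (adjusted p = 2.26e-05) and ATG101 to 0.45 (adjusted p = 0.00202). The HFG and DMSO libraries were in different sets, which cannot be told apart from the treatment. HFG for 24 h gave 0 calls among the members in edgeR and 0 in DESeq2, where 1.17% of all genes tested passed, and 3 members had an unadjusted p under 0.05. Without DMSO replicate 2 there were 5 calls, SQSTM1 at a log2 fold change of 0.40, WIPI1 at 0.34, MAP1LC3B at 0.29, ATG3 at 0.24 and NBR1 at 0.20. In that setting 9.34% of all genes tested rose and 10.2% fell. SQSTM1 had 457, 452 and 442 CPM with HFG, above every DMSO library. In this comparison 6 of 10 members did not overlap with DMSO although 0 were called. The share of all genes without overlap was not counted.

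The NCP26 effect in L363-CFZr minus that in AMO1 was tested as an interaction. At 6 h only WIPI1 passed, of 10 members, with a difference of 0.86 ± 0.14 (SE; adjusted p = 0.00247, edgeR), where 2.71% of all genes tested passed. Its log2 fold change was -0.037 in AMO1 and 0.84 in L363-CFZr. At 24 h WIPI1 differed by 0.85 (adjusted p = 0.0088) and SQSTM1 by -0.72 (adjusted p = 0.0449), where 5.41% of all genes tested passed. For SQSTM1 the call was lost without any 1 of 11 of the 12 libraries, with differences of -0.89 to -0.62 over all 12. It held without L363-CFZr DMSO replicate 2 at -0.89, where MAP1LC3B passed as well at -0.69 and WIPI1 stood at 0.76. The gene ARSG shares 22.1% of the 31-base words of WIPI1 and passed the test in no comparison with DMSO. With NCP26 at 24 h in L363-CFZr it had 26.3, 26.6 and 21.5 CPM, above the 15.1, 19.8 and 12.2 CPM of DMSO (log2 fold change 0.69, adjusted p = 0.0941, edgeR). How far reads of ARSG and WIPI1 were assigned to each other was not tested. The lines were in different sets and no parental L363 was measured, so differences between lines, in resistance and between sets cannot be told apart. At 6 h NCP26 and DMSO shared a set within each line. At 24 h they did so in L363-CFZr only. In AMO1 at 24 h a term for the set could be estimated only through the CFZ libraries. This interaction held no such term, so its AMO1 part at 24 h may hold a difference between sets.

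**Figure D4:**
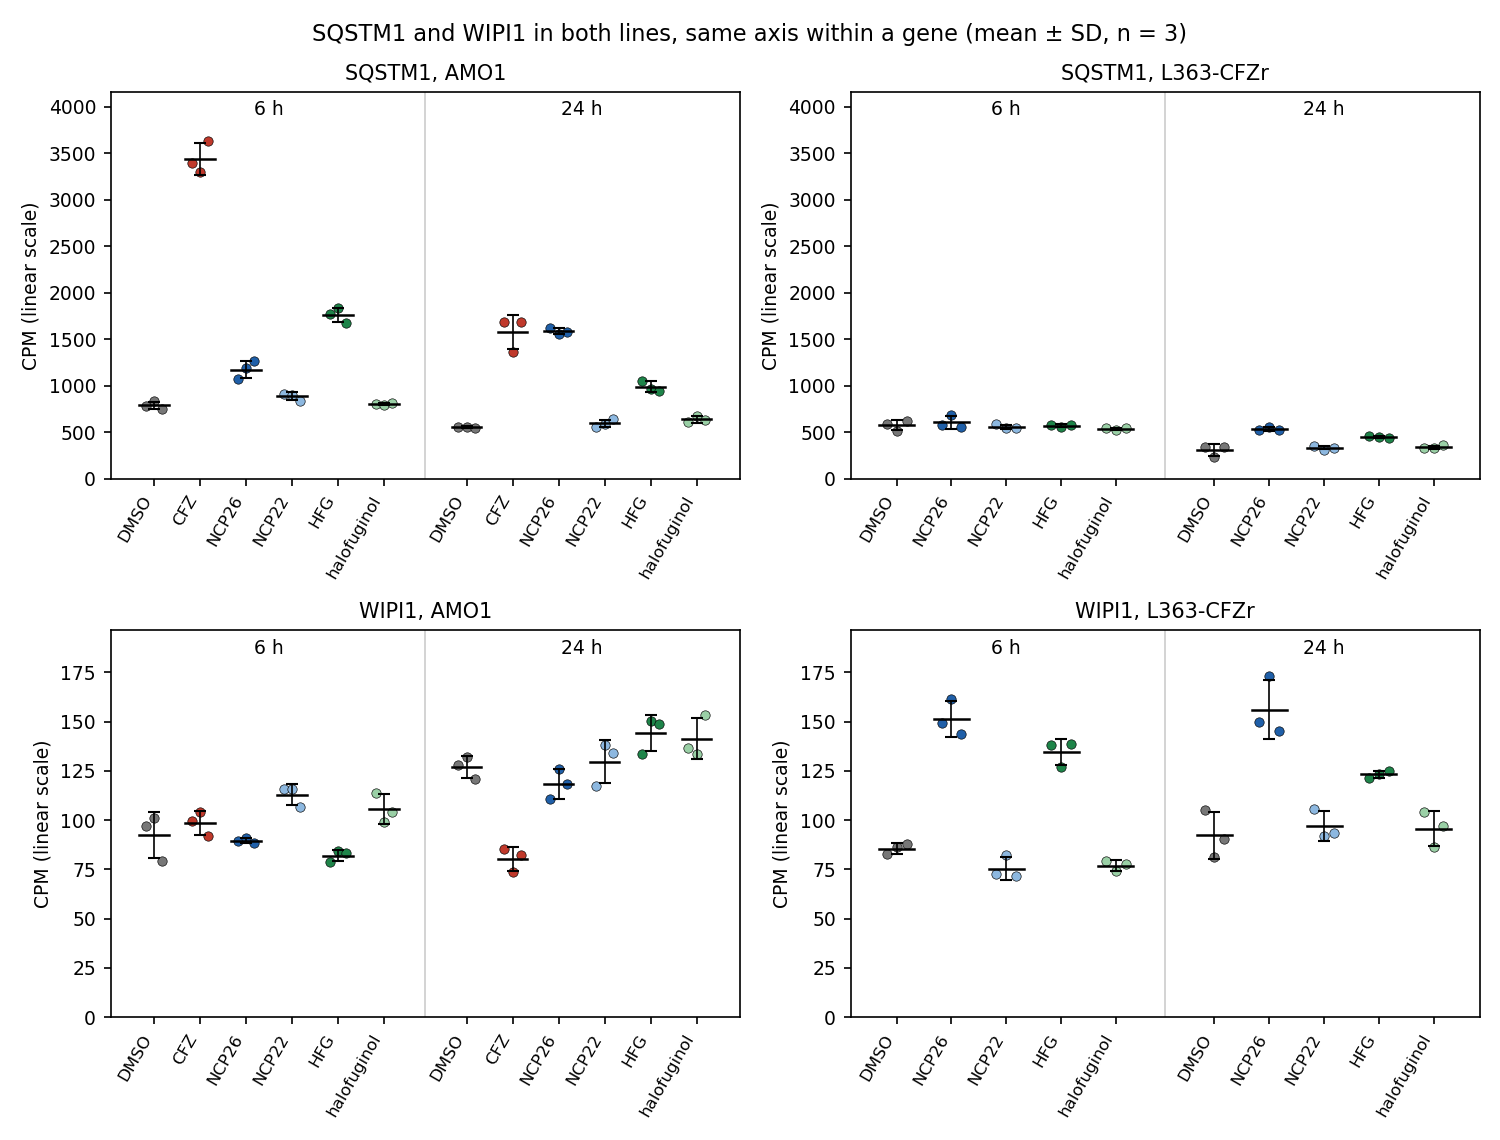
Level in CPM (y axis) of the receptor SQSTM1 and the lipid-binding WIPI1 in each library of AMO1 and L363-CFZr, by treatment and time along the x axis; points are libraries and bars the mean and SD of 3. SQSTM1 spans 544 to 3628 CPM in AMO1 and 232 to 680.3 CPM in L363-CFZr, and WIPI1 is raised by NCP26 and HFG at 6 h in L363-CFZr.

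The DMSO libraries of the lines differed in 6 of 10 members at each time, against 60.2% of all genes tested at 6 h and 39.9% at 24 h. MAP1LC3B was lower in L363-CFZr than in AMO1 by a log2 fold change of -0.92 at 6 h and -0.93 at 24 h. SQSTM1 was lower by -0.48 and -0.86, and NBR1 by -0.49 and -0.44, at 6 h and 24 h. GABARAPL1 was the only member called higher in L363-CFZr at either time, by 1.46 (adjusted p = 1.68e-07) at 6 h and 0.65 (adjusted p = 0.0345) at 24 h. At 6 h it had 12.6, 17.8 and 19.8 CPM in AMO1 and 41.4, 53.9 and 45.1 CPM in L363-CFZr. The other calls were lower values of ATG5 (-0.51) and ATG16L1 (-0.50) at 6 h and of WIPI1 (-0.45) and ATG101 (-1.09) at 24 h. At 24 h the calls were fragile, with 2 members left without AMO1 DMSO replicate 3, 3 without AMO1 DMSO replicate 2 and 9 without L363-CFZr DMSO replicate 2. Without the last, the library that stood apart, all 6 calls held, with log2 fold changes of -0.80 for MAP1LC3B, -0.71 for SQSTM1, -0.39 for NBR1, 0.82 for GABARAPL1, -0.38 for WIPI1 and -0.90 for ATG101. The share of all genes called with each library left out is not given. These counts are therefore not read as a trait of the members. ULK1 had 31.4, 61.7 and 34.3 CPM in the 3 L363-CFZr DMSO 24 h libraries, and its log2 fold change turned from 0.053 to -0.32 without replicate 2. These libraries shared no set, and no libraries of the parental L363 are in the data, so line, resistance and set cannot be told apart.

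NCP22 and halofuginol at 1 µM changed few members. Of 80 tests over 8 comparisons, 3 passed the adjusted threshold in edgeR, 4 in DESeq2 and 13 at an unadjusted p under 0.05. All 3 were in AMO1 at 6 h. With NCP22, MAP1LC3B had 203, 204 and 204 CPM against 112, 115 and 138 CPM with DMSO (log2 fold change 0.76, adjusted p = 2.19e-06, edgeR), and WIPI1 differed by 0.30 (adjusted p = 0.0326), where 7.42% of all genes tested rose and 6.08% fell. With halofuginol MAP1LC3B had 171, 156 and 137 CPM (log2 fold change 0.36, adjusted p = 0.0301, edgeR), where 2.60% of all genes tested rose and 1.02% fell. Of all genes tested, 13.5% passed with NCP22 and 3.62% with halofuginol at 6 h in AMO1, 0% and 0.183% at 24 h (for halofuginol 0.0731% higher and 0.110% lower), and in L363-CFZr 25.8% with halofuginol at 6 h (13.6% higher and 12.2% lower) and 0% in the other 3 comparisons. The WIPI1 call was lost without any 1 of 5 of its 6 libraries, and the halofuginol call without replicate 1 or 2 of either group and with an offset for GC content (0.27, adjusted p = 0.0715). SQSTM1 had 915, 904 and 835 CPM with NCP22 and 802, 798 and 814 CPM with halofuginol at 6 h.

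The related compounds were compared at the same dose and time, NCP26 with NCP22 and HFG with halofuginol, in 8 comparisons of 10 members, with p-values adjusted over all genes tested. In AMO1 20 of 40 tests passed, 17 higher and 3 lower with NCP26 or HFG, and in L363-CFZr 19 of 40 passed, all higher. The share of all genes tested that passed in either direction was 24.7% for NCP26 against NCP22 at 6 h and 52.0% at 24 h in AMO1, 51.7% and 56.6% for HFG against halofuginol, and in L363-CFZr 20.4%, 34.1%, 47.3% and 21.9%, in the same order. Of all genes, 12.6%, 26.3%, 25.6% and 27.9% were higher and 12.2%, 25.7%, 26.1% and 28.7% lower in AMO1. In L363-CFZr 9.96%, 16.2%, 23.1% and 9.59% were higher and 10.4%, 17.9%, 24.2% and 12.3% lower. In AMO1 5, 4, 7 and 4 of 10 members passed, below the share of all genes for NCP26 at 24 h and HFG at 24 h and above it at 6 h. In AMO1 SQSTM1 was higher with NCP26 than with NCP22 by a log2 fold change of 0.43 ± 0.10 (SE) at 6 h and 1.42 ± 0.062 at 24 h. MAP1LC3B was higher by 0.39 ± 0.079 at 6 h and 1.32 ± 0.07 at 24 h. GABARAPL1 was higher by 0.88 at 6 h and 0.45 at 24 h, ATG101 by 0.78 at 6 h and NBR1 by 0.43 at 24 h.

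Between HFG and halofuginol in AMO1, SQSTM1 was higher with HFG by a log2 fold change of 1.15 ± 0.041 (SE) at 6 h and 0.65 ± 0.061 at 24 h. ATG101 was higher by 0.92, MAP1LC3B by 0.76, GABARAPL1 by 0.60, ATG5 by 0.51 and NBR1 by 0.21 at 6 h. At 24 h GABARAPL1 was higher by 0.58 and MAP1LC3B by 0.40. The 3 lower calls were WIPI1 at 6 h, by -0.31 with NCP26 and -0.33 with HFG, and ULK1 with HFG at 24 h, by -0.45. WIPI1 with NCP26 was lost without any 1 of 3 libraries. Members that did not pass were not shown to be alike: ULK1 at 6 h had a 95% interval of -0.54 to 0.035 for NCP26 against NCP22 and of -0.51 to 0.084 for HFG against halofuginol.

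In L363-CFZr WIPI1 was higher with NCP26 than with NCP22 by a log2 fold change of 1.01 ± 0.11 (SE) at 6 h and 0.69 ± 0.095 at 24 h. ARSG, which shares 31-base words with WIPI1, was also higher with NCP26 at 24 h, with 26.3, 26.6 and 21.5 CPM against 11.7, 11.1 and 10.8 CPM with NCP22 (log2 fold change 1.16, adjusted p = 5.94e-05, edgeR). MAP1LC3B was higher by 0.85 and 0.79, and NBR1 by 0.56 and 0.44, at 6 h and 24 h. SQSTM1 passed at 24 h, by 0.69, and not at 6 h, where the difference was 0.11 with a 95% interval of -0.091 to 0.32. Against halofuginol, HFG gave higher WIPI1 (0.85), MAP1LC3B (0.67), NBR1 (0.61), GABARAPL1 (0.57), ATG101 (0.34) and SQSTM1 (0.13) at 6 h, as log2 fold changes. At 24 h SQSTM1 was higher by 0.41, MAP1LC3B by 0.37, WIPI1 by 0.36 and NBR1 by 0.29. The comparisons of HFG with halofuginol in both lines were made within 1 set each.

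**Figure D5:**
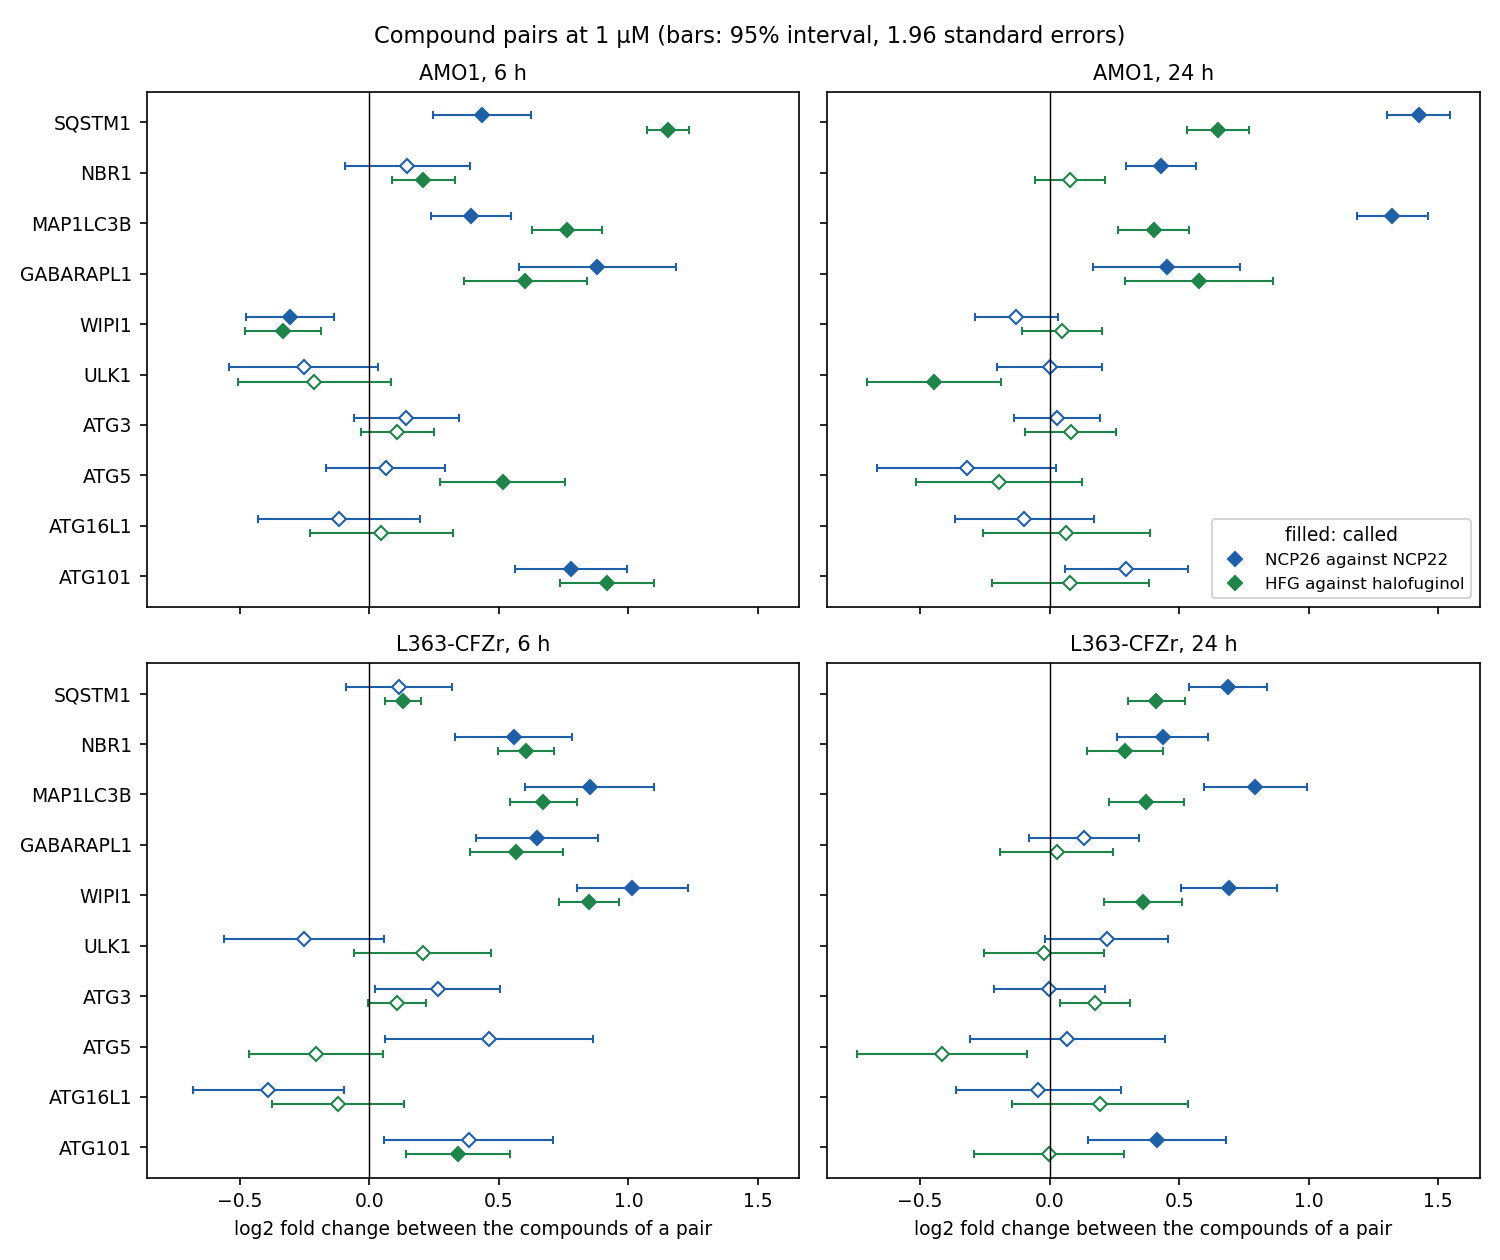
Log2 fold change (x axis) of NCP26 against NCP22 and of HFG against halofuginol for the 10 members (y axis), in 4 panels by line and time; filled marks passed the test and bars are 95% intervals. SQSTM1 and MAP1LC3B lie above 0, higher with NCP26 or HFG, in AMO1 at both times, while in L363-CFZr at 6 h WIPI1 and MAP1LC3B lie furthest to the right.

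The rest of the pathway was followed in lists that hold 91 other autophagy and lysosome genes, 89 of them in the table. With CFZ at 6 h, 28 of the 80 tested rose and 3 fell, where 14.1% of all genes tested rose and 12.8% fell, and their median log2 fold change was 0.16. BAG3, the co-chaperone of chaperone-assisted selective autophagy, rose from 35.8 ± 2.85 to 1105 ± 52 CPM (SD, n = 3; log2 fold change 4.94). HSPA8, the chaperone that BAG3 binds and the cargo carrier of chaperone-mediated autophagy, rose from 1782 ± 79.8 to 9969 ± 276 CPM (log2 fold change 2.48). CCPG1, a receptor for autophagy of the endoplasmic reticulum, had a log2 fold change of 0.97. At 24 h of CFZ, 13 of 80 rose and 6 fell, where 13.1% of all genes tested rose and 14% fell. Without CFZ replicate 2 the counts were 21 and 12, with 23.4% and 24.9% of all genes tested. HSPA8 (1.69) and BAG3 (1.68) remained higher by log2 fold change, and VAMP8, a SNARE of autophagosome fusion with the lysosome, was lower (-1.52). Without that library these values were 1.79, 1.54 and -1.29, all past the threshold.

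Synthetase inhibition moved the chaperone the other way. HSPA8 fell with NCP26 in AMO1, by a log2 fold change of -1.95 at 6 h and -2.001 at 24 h. Beside it at 6 h BNIP3L, a mitophagy receptor, had a log2 fold change of -1.13 and UVRAG, a partner of Beclin 1, one of 0.91, and at 24 h the co-chaperone BAG1 one of -1.36 and CCPG1 one of 1.31. Of 81 list genes tested with NCP26 at 6 h 15 rose and 11 fell, where 18.1% of all genes tested rose and 19.2% fell. At 24 h 41 of 80 rose and 15 fell, where 29.8% and 30.9% of all genes did. The share of list genes that rose is close to that of all genes at 6 h and above it at 24 h.

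With HFG in AMO1 22 of 81 list genes rose and 11 fell at 6 h, where 27.7% of all genes tested rose and 26.6% fell, and 34 rose and 16 fell at 24 h, where 28.5% and 30.5% did. HSPA8 was at -1.98, BNIP3L at -1.31 and VAMP8 at -1.22 with HFG at 6 h, as log2 fold changes. At 24 h VAMP8 was at -1.49 and CALCOCO1, a receptor for autophagy of the endoplasmic reticulum, at -1.36, while STBD1, a receptor for glycogen, was at 1.41. VAMP8 was thus lower with HFG at both times as well as with CFZ at 24 h.

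In L363-CFZr 9 of 81 list genes rose and 11 fell with NCP26 at 6 h, against 9.81% and 8.99% of all genes tested, and 20 rose and 26 fell with HFG at 6 h, against 26.9% and 27.5%. At 24 h 1 rose and 3 fell with NCP26, against 2.71% and 4.38%, and 1 rose and 0 fell with HFG, against 0.592% and 0.573%. Without DMSO replicate 2 these 24 h counts were 16 and 12 with NCP26, where 13.1% of all genes tested rose and 15.5% fell, and 11 and 6 with HFG, where 9.34% rose and 10.2% fell. The gene that rose in all 4 comparisons was CCPG1, by log2 fold changes of 1.26 with NCP26 and 1.53 with HFG at 6 h, and of 2.01 and 1.57 at 24 h, the last 2 at 2.001 and 1.57 without DMSO replicate 2. HSPA8 fell at 6 h, by -1.41 with NCP26 and -1.38 with HFG. The receptor CALCOCO2 (also called NDP52) rose with NCP26 at 6 h (0.83), and RB1CC1, the scaffold of the ULK1 complex, rose with HFG at 6 h (1.05). With NCP26 at 24 h the lysosomal CTSA was lower by -0.85 and ATG16L2, a relative of ATG16L1, by -0.85, or by -0.85 and -0.65 without DMSO replicate 2.

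Between CFZ and NCP26, 31 of 81 list genes were higher and 8 lower with CFZ at 6 h, against 21.8% and 20.2% of all genes tested, and 13 of 80 higher and 22 lower at 24 h, against 22.5% and 21.4%. Between CFZ and HFG 33 of 81 were higher and 12 lower at 6 h, against 26.8% and 27.2%, and 7 of 80 higher and 9 lower at 24 h, against 9.92% and 9.05%. Without CFZ replicate 2 the 24 h counts were 23 and 35 of 80 against NCP26, where 30.8% of all genes tested were higher and 29.995% lower, and 13 and 17 of 81 against HFG, where 18.7% were higher and 17.9% lower. BAG3 differed by a log2 fold change of 5.68 against NCP26 and 5.65 against HFG at 6 h, and by 2.55 and 2.32 at 24 h. HSPA8 differed by 4.44 and 4.47 at 6 h and by 3.68 and 2.47 at 24 h. UVRAG was lower with CFZ at 6 h, by -1.16 and -1.26. At 24 h GLA, a lysosomal galactosidase, was higher with CFZ than with NCP26 (1.86), and CCPG1 was lower than with HFG (-1.60). Without CFZ replicate 2 the 24 h values were 2.43 and 2.18 for BAG3, 3.79 and 2.58 for HSPA8, 2.06 for GLA and -1.51 for CCPG1, all past the threshold.

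Which genes of the whole table had patterns most like those of the members was described by Pearson correlation of mean log2 CPM over the 22 groups, among 11787 genes. These groups share lines, times and DMSO libraries and are not independent points. SQSTM1 was most like PI4K2A (r = 0.925), PCYT1A (0.913), SART3 (0.906), SUPT7L (0.894) and RND1 (0.881). MAP1LC3B was most like BACH1 (r = 0.952), NBR1 most like STX16 (0.949), ATG101 most like MTMR14 (0.948) and ULK1 most like UBE4B (0.932). The highest values for ATG16L1 (EDC3, r = 0.913), GABARAPL1 (PASD1, 0.912) and ATG5 (PPP3CC, 0.907) were close to these, and those for WIPI1 (ATF4, 0.873) and ATG3 (PYURF, 0.866) lower. Among the members themselves the highest value was that of SQSTM1 with MAP1LC3B (r = 0.863) and the lowest that of ULK1 with ATG3 (r = -0.839).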

How the data were processed

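The deposited file holds whole-number read counts of 20167 genes in 66 libraries. By the study's methods, poly(A) RNA was sequenced in paired ends from directional libraries, and the authors assigned reads to transcripts with kallisto (31-base words). The methods name GRCh38 and the submitters' processing notes hg19, so coordinates here come from the annotation and not from the counts. Identifiers were matched to GENCODE v44 (19299, or 95.7%, with a symbol) and promoters to RefSeq on GRCh38.p14 (10 of 10 members). No sample column was left unused.

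Each comparison was fitted over its own libraries with edgeR 4.0.16 (R 4.3.3): filterByExpr (minimum count 10, minimum total 15), TMM scaling, a quasi-likelihood test, and p adjusted by Benjamini-Hochberg across the genes tested (threshold 0.05). The SE was taken from the log2 fold change and its F statistic, and 95% intervals are 1.96 SE. CPM values in the text come from 1 TMM scaling over all 66 libraries. The fits were also run on simulated data in which far fewer genes changed than passed in most comparisons here. That run therefore does not check the fits where much of the table changes. DESeq2 1.42.0 (the study's tool), DESeq2 size factors, no filter, all groups of a line and time in one fit, a replicate block, an offset for GC content (lowess, span 0.3), terms for the set and leaving out each library were alternatives. Arithmetic and figures used Python 3.11.15, numpy 2.4.6, pandas 2.3.3 and matplotlib 3.10.9.

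Members and pathway lists were chosen with earlier results of these data known. Beyond the members, the text names up to 3 list genes with the largest called change without overlap and at least 5 CPM in each main comparison, the genes most like each member (5 for SQSTM1, 1 for the others), and some of the treatment checks and genes that share reads with a member. In 66 comparisons of replicates none were identical, and chi-square per gene ran from 1.29 to 36.3, so all counted as separate. Counting error is largest for ULK1, ATG5 and ATG16L1, with GABARAPL1 in AMO1 and ATG101 in L363-CFZr, the members with the fewest reads.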

Additional observations from a re-analysis of the deposited data

Results flagged for a closer look

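Differences between effects, 10 in all, passed their own interaction test in edgeR's quasi-likelihood fit. In AMO1 the log2 fold change of CFZ against DMSO at 24 h minus that at 6 h was -1.80 for MAP1LC3B (adjusted p = 8.05e-06), -0.87 for ATG101 (adjusted p = 0.00655), -0.78 for GABARAPL1 (adjusted p = 0.0316), -0.74 for WIPI1 (adjusted p = 0.00362), -0.69 for ATG5 (adjusted p = 0.0442), -0.60 for SQSTM1 (adjusted p = 0.00966) and -0.47 for NBR1 (adjusted p = 0.016). Without CFZ 24 h replicate 2 the difference of ATG5 no longer passed (-0.56, adjusted p = 0.0565) and the other 6 did. MAP1LC3B and SQSTM1 have an effect at 6 h that is larger than at 24 h, while WIPI1, NBR1 and ATG101 passed the test against DMSO only at 24 h, where they were lower. The GABARAPL1 difference lost its call when any of several other single libraries was left out. For NCP26 the effect in L363-CFZr minus that in AMO1 was 0.86 for WIPI1 at 6 h (adjusted p = 0.00247) and 0.85 at 24 h (adjusted p = 0.0088), and -0.72 for SQSTM1 at 24 h (adjusted p = 0.0449). The SQSTM1 difference was fragile, and its call was lost when almost any single library was left out. The lines were in different sets and no parental L363 was measured, so line, resistance and set cannot be told apart. At 24 h NCP26 and DMSO of AMO1 were also in different sets. The groups hold 3 libraries each, too few to test single libraries as outliers.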

How the results depend on the processing

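The CFZ calls at 6 h were the most stable: 4 members passed when any 1 of the 6 libraries was left out, and in every alternative the count of members called stayed within 1.5 times. Over all counts of members called, 39 settings moved a count by more than 1.5 times and 249 did not. Among the values of single members 4138 kept their side of the threshold, 175 lost the threshold and 82 gained it. The 4138 include values of no call that moved by less than the larger SD of log2 levels within a group, whatever their direction. Another 44 values of no call moved by more. A reversal was counted only where the main fit or the alternative made a call, and there was 1: ULK1 between the DMSO libraries of the lines at 24 h. It was -0.32 without L363-CFZr DMSO 24 h replicate 2 (adjusted p = 0.0173, edgeR), and over all 6 libraries left out in turn it ran from -0.32 to 0.24. The cause was not tested. A term for the set left 3 of 6 calls of HFG at 24 h in AMO1, and 2 with CFZ 24 h replicate 2 left out of it, an alternative added after seeing the data. With all groups in one fit the calls rose to 5 from 3 for NCP26 at 6 h in L363-CFZr and to 3 from 0 for HFG at 24 h. For the NCP26 difference between lines, DESeq2's Wald test and the GC offset each gave 2 calls at 6 h in place of 1, and no filter gave 1 at 24 h in place of 2. An alternative for CFZ at 24 h that kept only the DMSO set was chosen after seeing the data. It held 1 CFZ library, which has no spread of its own, so its calls are not given.

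Leaving out 1 library in turn gave 3 to 5 calls for CFZ against DMSO at 24 h, 4 to 5 for NCP26 at 6 h and 3 to 4 at 24 h, 5 to 7 for HFG at 6 h and 4 to 6 at 24 h, and 1 to 4 for NCP22 and halofuginol over 8 comparisons. In L363-CFZr it gave 2 to 4 for NCP26 at 6 h, 0 to 4 at 24 h, 3 to 5 for HFG at 6 h and 0 to 5 at 24 h. For CFZ against NCP26 it gave 4 to 6 at 6 h and 5 to 6 at 24 h, and against HFG 6 to 8 at 6 h and 1 to 7 at 24 h. The related compounds gave 17 to 21 calls in AMO1 and 17 to 19 in L363-CFZr. The lines gave 5 to 7 at 6 h and 2 to 9 at 24 h, the CFZ effect over time 5 to 7, and the NCP26 effect between lines 1 to 2 at 6 h and 1 to 3 at 24 h. Calls over all genes moved as well. For CFZ against DMSO at 24 h they were 2886 with all libraries, 1537 without DMSO replicate 2 and 5220 without CFZ replicate 2. These ranges are therefore not read as a trait of the members.

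The replicate numbers of the labels do not pair the samples: in 0 of 32 comparisons did all 3 same-numbered pairs deviate together with a correlation over 0.1, and correlations ran from -0.32 to 0.27. The replicate block left 0 of 3 calls for NCP26 at 24 h in L363-CFZr and 1 of 2 for the NCP26 difference between lines at 24 h. In the first of these it also took all genes called from 757 to 156.

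Counts over all genes moved more. DESeq2's Wald test called 1728 genes in place of 2820 for CFZ at 6 h, 780 in place of 1443 for NCP22 at 6 h and 1400 in place of 2718 for halofuginol at 6 h in L363-CFZr. The GC offset left 596 of the NCP22 count and 102 of that of halofuginol, and gave 1336 in place of 2012 for NCP26 at 6 h in L363-CFZr. The term for the set gave 2324 in place of 6547 for NCP26 and 3033 in place of 6328 for HFG at 24 h in AMO1. With all groups in one fit CFZ at 24 h had 4654 in place of 2886, and CFZ against HFG 4022 in place of 2002. DESeq2's Wald test moved the median log2 fold change of all genes for NCP26 at 6 h in AMO1 from -0.01 to 0.12. Depth limits ULK1, ATG5 and ATG16L1 most, with GABARAPL1 in AMO1 and ATG101 in L363-CFZr, at the lowest counts.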

Other observations

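The separate lists of other autophagy genes were counted in AMO1, where treatments share the DMSO libraries and no difference between lists or treatments was tested. Only some of the lists are named below. Over all lists without the members, 28 of 80 tested genes rose and 3 fell with CFZ at 6 h. With NCP26 at 24 h 41 of 80 rose and 15 fell, so the lists named do not stand for the rest. With CFZ at 6 h, where 14.1% of all genes tested rose and 12.8% fell, 8 of 18 tested genes of the TFEB family and lysosome list rose and 0 fell, as did 4 of 12 organelle receptors, and in the list of autophagosome fusion 3 of 14 rose and 1 fell. With NCP26 at 24 h, where 29.8% of all genes tested rose and 30.9% fell, 11 of 18 genes of the TFEB family and lysosome list rose and 2 fell, 9 of 14 fusion genes rose and 1 fell, and 6 of 8 genes of the phosphatidylinositol 3-kinase complex rose and 1 fell. The 4 tested genes of chaperone-assisted selective autophagy fell with NCP26 at 24 h.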
